A study of Mus musculus with 9 samples.

Results

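The unfolded protein response and the integrated stress response were followed through 32 genes, chosen by symbol and measured by RNA sequencing in 9 mouse libraries. All 32 were found in both deposited tables, of 36442 Ensembl genes in the epidermal table and of 24016 gene symbols in the table of regulatory T cells (Tregs). They fall into 6 roles: 11 chaperones and cochaperones of the endoplasmic reticulum (ER), 4 disulfide isomerases, 4 genes of ER-associated degradation (ERAD), 2 of the translocon, 4 sensors and sensor-linked factors, and 7 of the integrated stress response. The rule matches symbols and uses no measured value, but the list was drawn up with earlier results of these data known. The epidermal libraries are sorted keratinocytes of adult skin, 2 from the Mi2 group, whose column names call it a knock-out, and 2 from the WT group. The Treg libraries are sorted from lymph nodes that drain the skin: 1 of TSLPR- Tregs of Mi2 mice, 2 of TSLPR WT Tregs of Mi2 mice and 2 of control (Ctl) Tregs. Mi2 refers to the chromatin remodelling ATPase Mi-2β, encoded by Chd4, and TSLPR is the chain, encoded by Crlf2, through which cells sense the epithelial cytokine TSLP. The Treg columns are named as skin Tregs, while the labels give lymph nodes. The labels do not give the age, the allele, the driver or timing of the Mi2 deletion, the genotype of the Ctl mice, how the TSLPR- cells arose, or whether replicates came from separate mice.

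Secreted and membrane proteins fold in the ER. When unfolded proteins build up there, 3 sensors respond: ATF6, which is cut and moves to the nucleus, IRE1 (Ern1), which splices Xbp1 RNA, and PERK (Eif2ak3), which phosphorylates the initiation factor eIF2α and slows translation. ATF6 and XBP1 raise chaperones, disulfide isomerases and ERAD genes, while phosphorylated eIF2α favours translation of ATF4, whose targets include Asns, Trib3, Chac1 and Ddit3. Amino acid shortage reaches the same eIF2α and ATF4 step through another kinase, GCN2, so that arm is called the integrated stress response. Keratinocytes make large amounts of membrane and secreted protein as they differentiate, and activated Tregs enlarge their secretory pathway.

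The labels were checked on the genes they name. Chd4 had 734 and 1207 normalized reads in Mi2 epidermis, against 1607 and 1942 in WT epidermis, and fell by 0.91 on the log2 scale (limma, adjusted p = 0.0456), so reads of Chd4 remained in the Mi2 libraries. Crlf2 had 51.5 normalized reads in TSLPR- Tregs, 816 and 715 in TSLPR WT Tregs of Mi2 mice, and 395 and 742 in Ctl Tregs. Foxp3, the defining factor of Tregs, had 13460 normalized reads in TSLPR- Tregs, 13778 and 14517 in TSLPR WT Tregs, and 11159 and 15371 in Ctl Tregs. The summed level of 7 keratinocyte markers ran between 260678 and 314907 normalized reads in Mi2 epidermis and between 243358 and 254278 in WT epidermis, and that of 4 endothelial markers between 1.33 and 2.72 in Mi2 epidermis and was 0 in both WT libraries. The share of reads in mitochondrially encoded genes was 29.7% and 15.5% in the Mi2 epidermal libraries, against 13.8% and 12.9% in the WT ones, so Mi2 replicate 1 stood apart. The epidermal libraries held between 5682391 and 8913804 reads. Summed over all transcripts, the Treg libraries held between 21849381 and 32238992, where reads shared by transcripts of 1 gene can count more than once. With 1 transcript per gene they held between 13576847 and 19993483, the base of the Treg shares below. The 32 genes together took 0.306% and 0.366% of reads in Mi2 epidermis, against 0.241% and 0.268% in WT epidermis. In Tregs they took 0.560% in the TSLPR- library, 0.574% and 0.689% in TSLPR WT libraries of Mi2 mice, and 0.548% and 0.531% in Ctl libraries.

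The promoters are shown first because they carry the sequence by which ATF6 and XBP1 are known to act. The ER stress element (ERSE) is CCAAT, then 9 bases of any kind, then CCACG; NF-Y binds the CCAAT end and ATF6 or XBP1 the CCACG end. It was searched on both strands of RefSeq promoter windows of build GRCm38.p6, from 250 bases before to 50 bases after the transcription start; 29 of the 32 genes were in that table, and Hyou1, Manf and Atf6 were not. An exact match was present in 8 of the 29 genes (27.6%), against 0.137% of the 27025 genes in the table. Both the motif and the 32 genes were taken from general knowledge of this response. The contrast was therefore partly fixed by the choice and was not tested. The 9 sites of these 8 genes are given 5′ to 3′ in the sense of the motif, with the fixed letters in capitals and the 9 spacer bases in lower case.
Hspa5: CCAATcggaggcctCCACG
Hsp90b1, first site: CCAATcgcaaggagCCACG
Hsp90b1, second site: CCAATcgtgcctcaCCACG
Calr: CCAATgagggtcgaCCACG
Canx: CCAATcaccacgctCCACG
Pdia6: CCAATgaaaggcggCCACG
Dnajc3: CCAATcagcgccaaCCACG
Creld2: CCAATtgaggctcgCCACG
Syvn1: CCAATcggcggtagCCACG
The spacers differ from gene to gene, while the ends and their distance are alike because only exact matches were searched. All 9 sites lie before the start, between 26 bases (Syvn1) and 212 bases (Hsp90b1) from it. Full windows are given for Hspa5, Hsp90b1 and Pdia6 to show how the sites sit, with ERSE matches in capitals. In Hsp90b1, the second run of capitals is the motif read from the opposite strand. In Pdia6, the first run of capitals, ATTGGCCACG, is a match to another searched pattern (ATTG, any 1 base, CCACG), which shares the CCACG end. That pattern had no match in the other 28 genes and one in 0.0851% of genes in the table.
Hspa5 (chr2:34771840-34772139, plus strand): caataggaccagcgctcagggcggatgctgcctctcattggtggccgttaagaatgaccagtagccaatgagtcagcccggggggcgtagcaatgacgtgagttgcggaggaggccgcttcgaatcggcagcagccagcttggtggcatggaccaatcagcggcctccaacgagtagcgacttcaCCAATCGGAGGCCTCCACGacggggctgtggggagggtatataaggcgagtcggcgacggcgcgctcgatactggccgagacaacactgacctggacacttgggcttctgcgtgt
Hsp90b1 (chr10:86705395-86705694, minus strand): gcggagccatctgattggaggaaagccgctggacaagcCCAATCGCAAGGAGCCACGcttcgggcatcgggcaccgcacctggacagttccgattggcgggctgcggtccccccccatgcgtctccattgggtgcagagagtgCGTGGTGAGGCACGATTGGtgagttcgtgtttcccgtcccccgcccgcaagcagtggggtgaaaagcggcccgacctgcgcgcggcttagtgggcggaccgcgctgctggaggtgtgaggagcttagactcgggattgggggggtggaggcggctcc
Pdia6 (chr12:17266339-17266638, plus strand): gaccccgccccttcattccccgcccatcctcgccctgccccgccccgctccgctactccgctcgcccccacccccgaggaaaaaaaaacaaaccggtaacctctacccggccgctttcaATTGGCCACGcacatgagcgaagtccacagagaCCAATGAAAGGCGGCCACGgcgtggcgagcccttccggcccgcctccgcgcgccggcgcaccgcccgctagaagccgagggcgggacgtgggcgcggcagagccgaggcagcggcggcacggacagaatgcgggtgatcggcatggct

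The second element, the C/EBP-ATF response element (CARE, TGATGNAA), is the site bound by ATF4 with a C/EBP partner. It matched in 5 of the 29 genes (17.2%), which were Asns, Atf3, Chac1, Herpud1 and Trib3, against 4.51% of genes in the table. No gene held both an ERSE and a CARE match. The UPR element TGACGTGG matched in none of the 29 and in 0.714% of genes in the table. Matches are letters in these windows, and binding was not measured. The CARE motif and the genes were likewise taken from general knowledge of the response. The windows of Asns and Trib3, the CARE genes with the largest changes described below, are printed with the match in capitals. In Asns it lies 23 to 16 bases before the start, and in Trib3 it lies 15 to 22 bases after the start on the opposite strand, reading TGATGTAA in the sense of the motif.
Asns (chr6:7693160-7693459, minus strand): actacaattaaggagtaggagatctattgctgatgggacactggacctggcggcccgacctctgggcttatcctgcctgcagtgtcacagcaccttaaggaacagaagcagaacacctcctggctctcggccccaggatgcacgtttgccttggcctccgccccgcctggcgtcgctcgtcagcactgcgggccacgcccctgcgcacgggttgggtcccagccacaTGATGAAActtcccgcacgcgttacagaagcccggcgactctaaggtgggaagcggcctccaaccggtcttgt
Trib3 (chr2:152344011-152344310, minus strand): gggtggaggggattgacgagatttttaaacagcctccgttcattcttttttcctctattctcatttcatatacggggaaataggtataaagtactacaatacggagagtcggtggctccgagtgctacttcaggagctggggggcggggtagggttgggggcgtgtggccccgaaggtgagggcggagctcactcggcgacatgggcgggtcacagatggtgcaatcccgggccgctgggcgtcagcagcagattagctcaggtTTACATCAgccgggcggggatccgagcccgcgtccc

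In Mi2 epidermis, 8 of 11 ER chaperones were 1.98-fold to 2.54-fold higher than in WT epidermis, together with 2 disulfide isomerases and the integrated stress response genes Trib3, Asns and Atf4. The sensors, the ERAD genes and the translocon genes were not called, and Ddit3 (CHOP) was lower. Of the 31 genes that passed the filter on a mean of at least 10 normalized reads (Chac1 did not), 13 were called higher (41.9%), against 15.1% of all 14461 genes tested. A total of 1 was called lower, against 13.1% of all genes, and 17 were not called. The call was an adjusted p under 0.05 from limma with Benjamini-Hochberg adjustment over all genes tested, and changes are on the scale of log2(value + 1). Trib3 passed the filter through its Mi2 libraries alone, and without it 12 of 30 genes were higher (40.0%). The median change of the 31 genes was 0.44, against -0.03 over all genes tested.

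**Figure D1:**
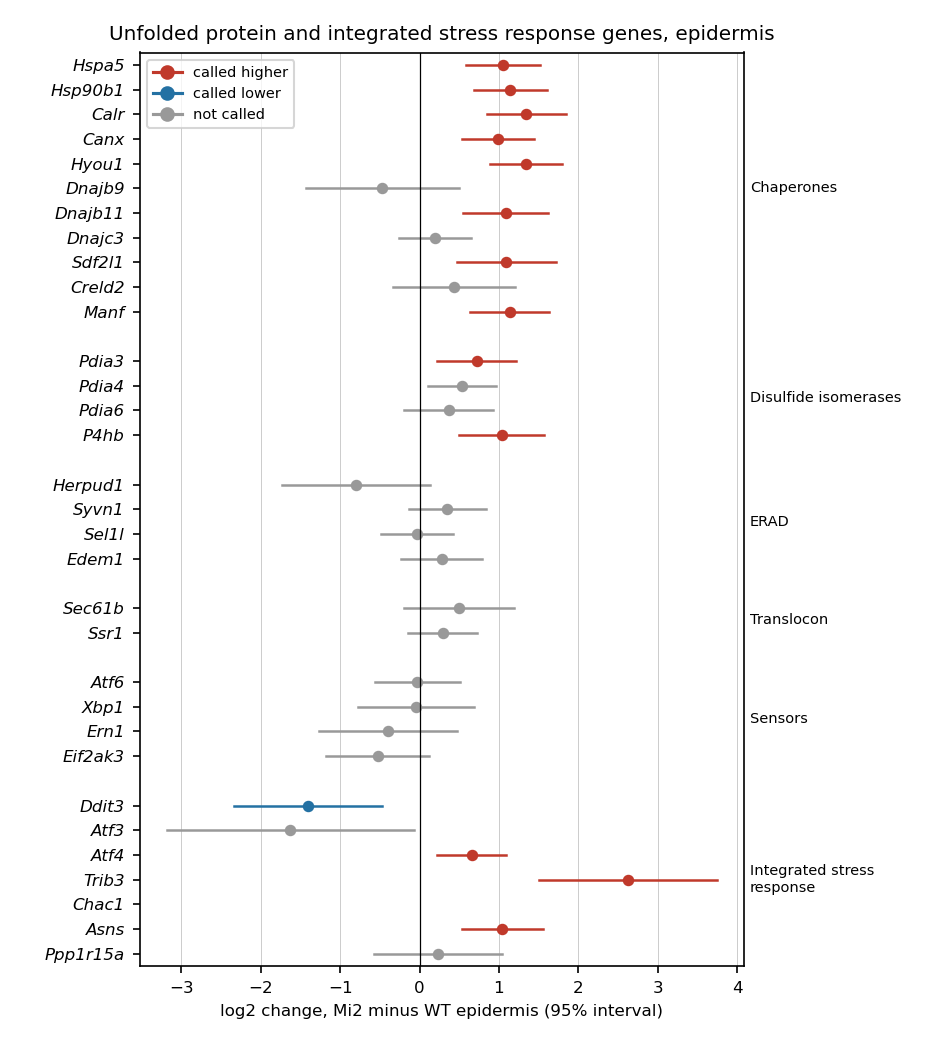
Log2 change, Mi2 minus WT epidermis (x axis), of each gene by role, with the 95% interval of the fit over 4 libraries. Of the chaperones, 8 of 11 lie to the right of 0 and were called, the 4 sensors were not called, and Ddit3 lies to the left; Chac1 was not tested.

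Among the chaperones, 8 of 11 were called higher, with a median change of 1.09 over the 11. Hspa5, which encodes BiP, the chief Hsp70 of the ER and the brake on all 3 sensors, had 2163 and 2453 normalized reads in Mi2 epidermis, against 1034 and 1201 in WT epidermis. Hsp90b1, the ER Hsp90 (GRP94), had 2626 and 2508 in Mi2 epidermis, against 1070 and 1260 in WT epidermis. Both Mi2 libraries were above both WT libraries for each gene. Hspa5 was 2.07-fold higher (log2 1.05 ± 0.20 SE, adjusted p = 0.0109) and Hsp90b1 2.21-fold (1.14 ± 0.19, adjusted p = 0.00779). The lectin chaperones, which hold glycoproteins while they fold, changed likewise. Calr had 6001 and 5089 normalized reads in Mi2 epidermis, against 2096 and 2251 in WT epidermis (log2 1.35 ± 0.21, adjusted p = 0.00597). Its membrane-bound relative Canx had 3406 and 3069 in Mi2 epidermis, against 1597 and 1668 in WT epidermis (0.99 ± 0.19, adjusted p = 0.0124). The groups did not overlap for either gene.

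Cofactors of BiP moved with it in part. Hyou1, an Hsp110-type exchange factor for BiP, had 1055 and 984 normalized reads in Mi2 epidermis, against 366 and 439 in WT epidermis (log2 1.34, adjusted p = 0.00481). Manf, a secreted ER protein that binds BiP, had 553 and 444 in Mi2 epidermis, against 214 and 235 in WT epidermis (1.14, adjusted p = 0.0101). Dnajb11 (ERdj3), a J-domain cochaperone, had 523 and 391 in Mi2 epidermis, against 198 and 226 in WT epidermis (1.09, adjusted p = 0.0148). For these 3 genes the lower Mi2 library was above the higher WT library. Sdf2l1, which works in a complex with Dnajb11, had 127 and 123 in Mi2 epidermis, against 63.5 and 53.0 in WT epidermis (1.09, adjusted p = 0.0239). The other J-domain proteins were not called: Dnajb9 (ERdj4) had 51.7 and 92.6 in Mi2 epidermis, against 130 and 71.1 in WT epidermis, with overlapping groups (log2 -0.47), and Dnajc3 (p58IPK) had 425 and 465 in Mi2 epidermis, against 374 and 402 in WT epidermis (0.19). Creld2 had 59.7 and 65.4 in Mi2 epidermis, against 38.7 and 54.4 in WT epidermis (0.44) and was not called.

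Of the disulfide isomerases, which form and shuffle disulfide bonds, 2 of 4 were called higher. P4hb (PDI) had 4043 and 3079 normalized reads in Mi2 epidermis, against 1868 and 1587 in WT epidermis (log2 1.03, adjusted p = 0.0171). Pdia3 (ERp57), the partner of calnexin and calreticulin, had 3068 and 2389 in Mi2 epidermis, against 1673 and 1609 in WT epidermis (0.72, adjusted p = 0.0418). The groups did not overlap for either gene. Pdia4 was just outside the threshold (0.54, adjusted p = 0.0675), with 690 and 685 in Mi2 epidermis, against 454 and 496 in WT epidermis, and Pdia6 changed by 0.37 (adjusted p = 0.275).

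Of the ERAD genes, 0 of 4 were called by limma, edgeR or DESeq2, and 0 had an unadjusted p under 0.05. Herpud1, a scaffold of the ERAD complex, had 230 and 527 normalized reads in Mi2 epidermis, against 738 and 499 in WT epidermis, so its groups overlapped (log2 -0.80, adjusted p = 0.166). The ubiquitin ligase Syvn1 (HRD1), its partner Sel1l and the mannosidase-like Edem1 changed by 0.35, -0.03 and 0.28. The translocon genes Sec61b, a subunit of the channel, and Ssr1, a translocon-associated protein, changed by 0.49 and 0.29, and 0 of the 2 were called by any of the 3 tools or had an unadjusted p under 0.05.

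The sensors stood apart from the chaperones in these values: 0 of 4 were called by limma, edgeR or DESeq2, and 0 had an unadjusted p under 0.05. Atf6 had 280 and 362 normalized reads in Mi2 epidermis, against 293 and 360 in WT epidermis (log2 -0.03, 95% interval -0.57 to 0.51). Xbp1 had 226 and 424 in Mi2 epidermis, against 307 and 332 in WT epidermis (-0.04, -0.77 to 0.68). The Mi2 libraries lay on both sides of the WT ones for Xbp1, and its spliced and unspliced forms are not separated in gene counts. Ern1 had 90.2 and 187 in Mi2 epidermis, against 150 and 197 in WT epidermis (-0.40, -1.27 to 0.47). Eif2ak3 had 91.5 and 138 in Mi2 epidermis, against 158 and 166 in WT epidermis (-0.52, -1.17 to 0.12), without overlap. RNA levels do not show whether a sensor was active.

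**Figure D2:**
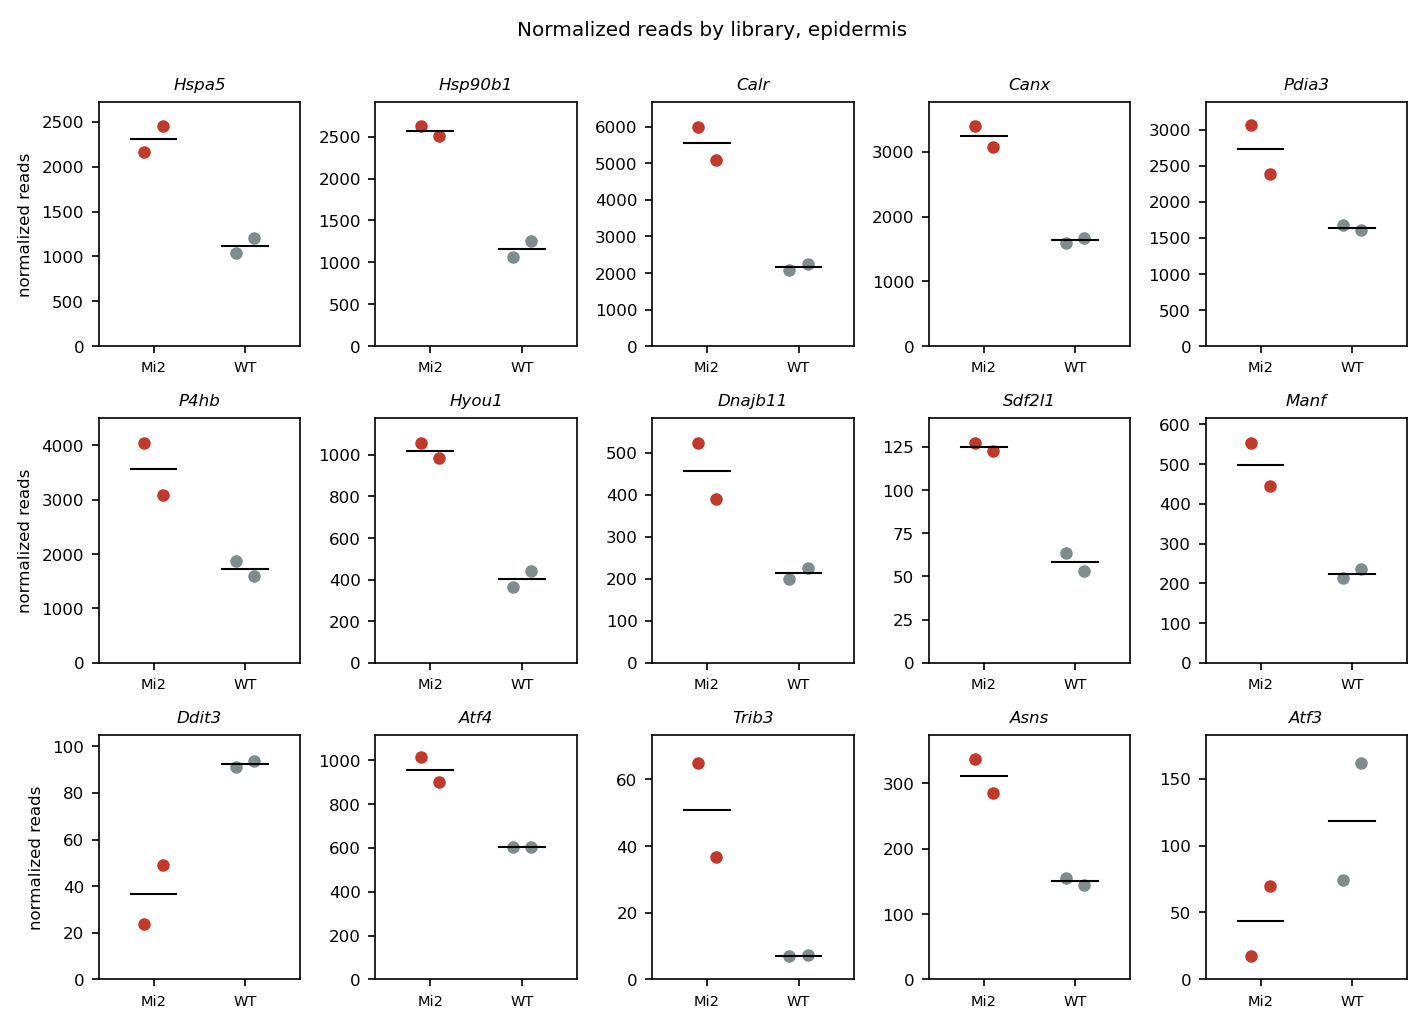
Normalized reads of each epidermal library (y axis, from 0), Mi2 left and WT right, for the 14 called genes and Atf3; points are libraries and bars are group means. Both Mi2 libraries lie above both WT libraries in 13 panels, and below them for Ddit3 and Atf3. The 14 genes were picked by their call, so this separation adds no support to it. Its share over all genes in epidermis was not counted.

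The integrated stress response genes split. Trib3, a pseudokinase induced by ATF4, had 65.0 and 36.8 normalized reads in Mi2 epidermis, against 6.95 and 7.26 in WT epidermis (log2 2.62 ± 0.47 SE, adjusted p = 0.00948), and rested on 49 and 27 reads in Mi2 epidermis, against 7 and 10 in WT epidermis. Its WT mean of 7.10 was under the filter of 10, so it was tested only because it was high in Mi2 epidermis, and its call without any filter stood as well. Asns, asparagine synthetase, had 337 and 286 in Mi2 epidermis, against 156 and 144 in WT epidermis (1.04 ± 0.21, adjusted p = 0.0142). Atf4 itself had 1012 and 902 in Mi2 epidermis, against 604 and 604 in WT epidermis (0.66 ± 0.18, adjusted p = 0.0367). These 3 were higher in both Mi2 libraries than in either WT library. Ddit3 (CHOP), the pro-apoptotic factor downstream of ATF4, had 23.9 and 49.0 in Mi2 epidermis, against 91.3 and 93.6 in WT epidermis, and fell by 1.41 on the log2 scale (adjusted p = 0.0377). Atf3, a stress factor also induced with immediate early genes, had 17.2 and 69.5 in Mi2 epidermis, against 74.4 and 162 in WT epidermis (-1.63, adjusted p = 0.105), not called although the groups did not overlap. Ppp1r15a (GADD34), which brings a phosphatase to eIF2α, had 291 and 148 in Mi2 epidermis, against 198 and 158 in WT epidermis, with overlapping groups (0.23). Chac1, a glutathione-degrading enzyme induced by ATF4, had 9.29 and 9.54 in Mi2 epidermis, against 6.95 and 9.44 in WT epidermis, under the filter. Exons of Ddit3 overlap those of Mars on the opposite strand, and Mars had 462 and 460 in Mi2 epidermis, against 209 and 231 in WT epidermis (1.07, adjusted p = 0.00979). The strand setting of the counting is not given in the sources used here, so how reads of the overlap were assigned was not tested.

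Single libraries bore on these calls. Without WT replicate 1, 1 gene was called higher, which was Calr, and without WT replicate 2, 5 were (Hspa5, Hsp90b1, Calr, Hyou1 and Trib3). In those fits 771 and 1012 of all genes were called higher, against 2185 with all 4 libraries, and each left 1 WT library. Ddit3 was not called without either WT library or without Mi2 replicate 1, which lowered its change to -0.90 (adjusted p = 0.0633), and without Mi2 replicate 1 Pdia3 (0.54, adjusted p = 0.0746) and Atf4 (0.58, adjusted p = 0.0563) also missed the threshold. Without Mi2 replicate 2, which left 1 Mi2 library, the median change of the 31 genes was 0.65, against -0.03 over all genes tested. Mi2 replicate 1, which had the high mitochondrial share, held the lower Mi2 value of Dnajb9, Herpud1, Xbp1, Ern1, Eif2ak3, Ddit3 and Atf3. It also held that of Hspa5, Dnajc3, Creld2, Syvn1, Sel1l, Edem1, Atf6 and Chac1, and the higher Mi2 value of the other genes. The part of the mitochondrial share in these values was not tested. The immediate early gene Jun, named here after its values were seen, also had its lower Mi2 value in that library, with 498 and 1523 normalized reads in Mi2 epidermis, against 1316 and 1253 in WT epidermis. Rescaled without mitochondrial genes, the libraries gave 1531 higher and 2744 lower calls over all genes, against 2185 and 1900, and the median of all genes moved to -0.27. On that scale 11 of the 31 genes were called higher and their median was 0.21, while Pdia3 (0.49, adjusted p = 0.103) and Atf4 (0.43, adjusted p = 0.125) were not called. The sorted keratinocytes span several layers. Of 7 keratinocyte markers, Krt1, a keratin of differentiated layers, fell by 1.67 on the log2 scale (limma, adjusted p = 0.0175), and 6 were not called. Among those 6, Krt10 changed by -1.60, and 5 had positive changes of up to 0.92 (Krt14). Cd74, the class II invariant chain, rose by 1.44, while H2-Aa (0.71) and H2-Ab1 (0.34) were not called. Of 5 erythroid markers, 4 were lower. Of 6 plasma cell markers, Jchain and Tnfrsf17 had 0 reads in all 4 epidermal libraries, Sdc1, which keratinocytes also express, rose by 0.85 (adjusted p = 0.0490), and Irf4 fell by 3.40 on the log2 scale. Their sum ran between 6930 and 9974 normalized reads in Mi2 epidermis and between 4789 and 4888 in WT epidermis, and most of it was Sdc1. The part of these cells in the ER values was not tested. In these bulk samples, fewer cells of a type and less RNA per cell cannot be told apart.

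A total of 205 further genes of the same pathways, in 9 lists, were read in the same fit. Over all genes tested in epidermis, 15.1% were called higher and 13.1% lower. The largest shares of called genes lay in amino acid and ATF4-linked genes, of which 15 of 25 tested were higher and 2 lower (median change 0.91), and in cytosolic and bifunctional aminoacyl-tRNA synthetases, of which 15 of 20 were higher and 0 lower (median 0.99). That 0 held with edgeR and DESeq2, which called 15 and 14 synthetases in all. Slc1a5, the glutamine transporter ASCT2, had 630 and 365 normalized reads in Mi2 epidermis, against 59.5 and 63.9 in WT epidermis (log2 2.94, adjusted p = 0.00151). Slc7a5, the large neutral amino acid transporter LAT1, had 1548 and 1227 in Mi2 epidermis, against 329 and 208 in WT epidermis (2.39, adjusted p = 0.0021). Aldh18a1, the first enzyme of proline synthesis, rose by 1.99, while Cbs, the entry enzyme of transsulfuration, had 54.4 and 70.8 in Mi2 epidermis, against 475 and 356 in WT epidermis, and fell by 2.71 on the log2 scale. Among the synthetases, Gars rose by 1.65, Vars by 1.48, Cars by 1.45 and Mars by 1.07. The count of synthetases called higher was 2 without WT replicate 1, 4 without WT replicate 2, 6 without the intensity trend and 10 rescaled without mitochondrial genes. That of amino acid genes was 8 without WT replicate 1 and 7 without WT replicate 2.

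The lists on ER folding, ERAD and translocation had shares called higher of 15%, 14.8% and 14.3%, near the 15.1% of all genes, and ER-Golgi genes had 20%, so the genes below are given as values and not as a result about the lists. Of 20 further ER folding genes, 3 were higher and 2 lower (median 0.05), among them Txndc5, a disulfide isomerase family member (1219 and 900 normalized reads in Mi2 epidermis, against 378 and 433 in WT epidermis, log2 1.37), and Dnajc10 (0.80), while Sil1, another exchange factor for BiP, fell by 1.31 and Dnajc1 by 0.79 on the log2 scale. Of 27 further ERAD genes, 4 were higher and 2 lower (median -0.08): the segregase Vcp (1.09) and its cofactor Nploc4 (1.22) were higher, with H13, the signal peptide peptidase (0.99), and Erlin2 was lower (-1.36). Of 28 genes of translocation and glycosylation, 4 were higher (median 0.41), among them the channel subunit Sec61a1 (0.96) and the oligosaccharyltransferase subunits Ostc (1.47), Ddost (0.72) and Rpn1 (0.71). Of 20 ER-Golgi genes, 4 were higher and 1 lower (median 0.34), with Sec24d, a COPII coat subunit, at 1.25, Surf4, a cargo receptor, at 0.88 and Tmed3, a p24 protein, at -1.91. Kdelr3, a receptor that returns escaped ER proteins, had 27.9 and 13.6 normalized reads in Mi2 epidermis, against 2.98 and 0.726 in WT epidermis, where it rested on 3 and 1 reads. It passed the filter through its Mi2 libraries alone, and the 20% of ER-Golgi genes counts it.

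Over all genes tested in epidermis, 15.1% were called higher and 13.1% lower, and the lists of this paragraph are given beside these shares. Of 22 further sensors and regulators, 4 were higher (18.2%, median 0.37). Creb3l1 (OASIS), an ER-membrane transcription factor of the ATF6 kind, had 178 and 84.5 normalized reads in Mi2 epidermis, against 12.9 and 10.2 in WT epidermis (log2 3.31, adjusted p = 0.00382). Cebpb, a partner of ATF4, had 1003 and 849 in Mi2 epidermis, against 381 and 377 in WT epidermis (1.28), and Wfs1 (1.29) and Eif2s1, which encodes eIF2α (0.94), were also called. Both Mi2 libraries were above both WT ones for Creb3l1 and Cebpb. Of 21 heat shock genes, 5 were higher (23.8%) and 1 lower (median 0.60), led by Hspd1, the mitochondrial chaperonin (1.48), Hsp90aa1 (1.47) and Dnaja1 (0.94), with Hsf2 lower (-1.11). DESeq2 called 10 of them, against 6 with limma. Of 10 immediate early genes, 2 were higher (Ier3 1.78, Junb 0.85) and 2 lower (Fosb -2.37, Dusp1 -1.63).

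**Figure D3:**
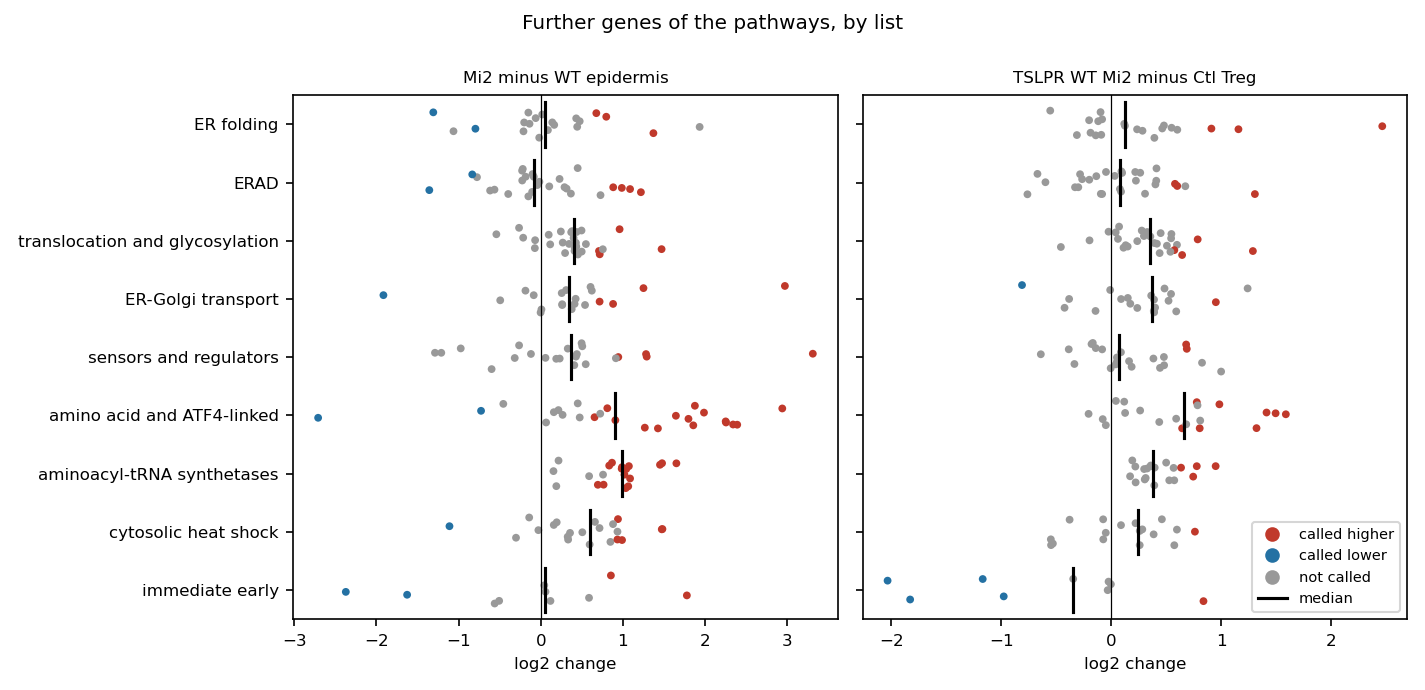
Log2 change (x axis) of each tested gene of the 9 further lists (rows), in Mi2 minus WT epidermis (left) and in TSLPR WT Mi2 minus Ctl Tregs (right); points are genes and black bars are list medians. In epidermis the medians of amino acid genes (0.91) and tRNA synthetases (0.99) lie farthest to the right.

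In TSLPR WT Tregs of Mi2 mice, Asns was higher than in Ctl Tregs by 2.32 on the log2 scale, and Atf6, Sdf2l1, Pdia6 and Sec61b were higher by smaller amounts, while Ddit3 was lower. The main chaperones were not called. Of the 30 genes that passed the filter (Atf3 and Chac1 did not), 5 were called higher (16.7%), against 14.7% of all 12206 genes tested, so the share lay near the background. A total of 1 was lower, against 13% of all genes. The median change of the 30 genes was 0.26, against -0.01 over all genes tested. edgeR and DESeq2 also called 6 of the genes each.

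Asns had 246 and 398 normalized reads in TSLPR WT Tregs of Mi2 mice, against 73.4 and 52.1 in Ctl Tregs (log2 2.32 ± 0.34 SE, adjusted p = 0.000178). Atf6, the sensor, had 1925 and 1701 in TSLPR WT Tregs, against 979 and 717 in Ctl Tregs (1.11 ± 0.22, adjusted p = 0.00207). Both TSLPR WT libraries were above both Ctl libraries for each. Sdf2l1 had 541 and 740 in TSLPR WT Tregs, against 295 and 266 in Ctl Tregs (1.17 ± 0.26, adjusted p = 0.00376). Pdia6 had 2762 and 4183 in TSLPR WT Tregs, against 2021 and 2238 in Ctl Tregs (0.68 ± 0.23, adjusted p = 0.0384). Sec61b had 631 and 712 in TSLPR WT Tregs, against 372 and 444 in Ctl Tregs (0.72 ± 0.24, adjusted p = 0.0363). These groups did not overlap either, and for Pdia6 the TSLPR WT libraries were far apart. Ddit3 had 206 and 225 in TSLPR WT Tregs, against 333 and 397 in Ctl Tregs, and fell by 0.75 on the log2 scale (adjusted p = 0.0484).

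The genes not called included the chaperones that led in epidermis. Hspa5 had 8604 and 11701 normalized reads in TSLPR WT Tregs, against 9425 and 9473 in Ctl Tregs, so the TSLPR WT libraries lay on both sides of the Ctl ones (log2 0.09, 95% interval -0.38 to 0.55). Calr had 9559 and 13832 in TSLPR WT Tregs, against 9153 and 9694 in Ctl Tregs (0.29), and Hyou1 had 2074 and 2671 in TSLPR WT Tregs, against 2277 and 2804 in Ctl Tregs (-0.10). Creld2 (0.64, adjusted p = 0.074), Ssr1 (0.55, adjusted p = 0.0645), Manf (0.54, adjusted p = 0.0768) and P4hb (0.52, adjusted p = 0.0821) had non-overlapping groups and were near the threshold. Of the remaining chaperones, Dnajb11 and Canx changed by 0.45 each, Hsp90b1 by 0.33, Dnajc3 by -0.27 and Dnajb9 by -0.30, and of the disulfide isomerases Pdia3 changed by 0.29 and Pdia4 by -0.09, none of them called. Of the ERAD genes, 0 of 4 were called by limma, edgeR or DESeq2, and 0 had an unadjusted p under 0.05, with Sel1l at 0.22, Herpud1 at 0.20, Edem1 at -0.39 and Syvn1 at -0.47. Among the other sensors, Ern1 had 337 and 246 in TSLPR WT Tregs, against 178 and 196 in Ctl Tregs (0.62, adjusted p = 0.118). Xbp1 had 2187 and 1943 in TSLPR WT Tregs, against 2034 and 1991 in Ctl Tregs (0.03), and Eif2ak3 had 751 and 739 in TSLPR WT Tregs, against 708 and 737 in Ctl Tregs (0.045).

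Of the integrated stress response, Atf4 had 2524 and 3002 normalized reads in TSLPR WT Tregs, against 2373 and 2494 in Ctl Tregs (log2 0.18, adjusted p = 0.551). Trib3 had 30.9 and 65.7 in TSLPR WT Tregs, against 137 and 73.0 in Ctl Tregs (-1.13, adjusted p = 0.0617). Ppp1r15a had 296 and 313 in TSLPR WT Tregs, against 432 and 504 in Ctl Tregs (-0.61, adjusted p = 0.0811). So Asns, Trib3 and Ddit3, all known targets of ATF4, had changes of different sign in the same libraries. Atf3 had 1.76 and 1.99 in TSLPR WT Tregs, against 7.10 and 2.41 in Ctl Tregs, and Chac1 had 5.29 and 1.99 in TSLPR WT Tregs, against 1.18 and 1.60 in Ctl Tregs, both under the filter.

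**Figure D4:**
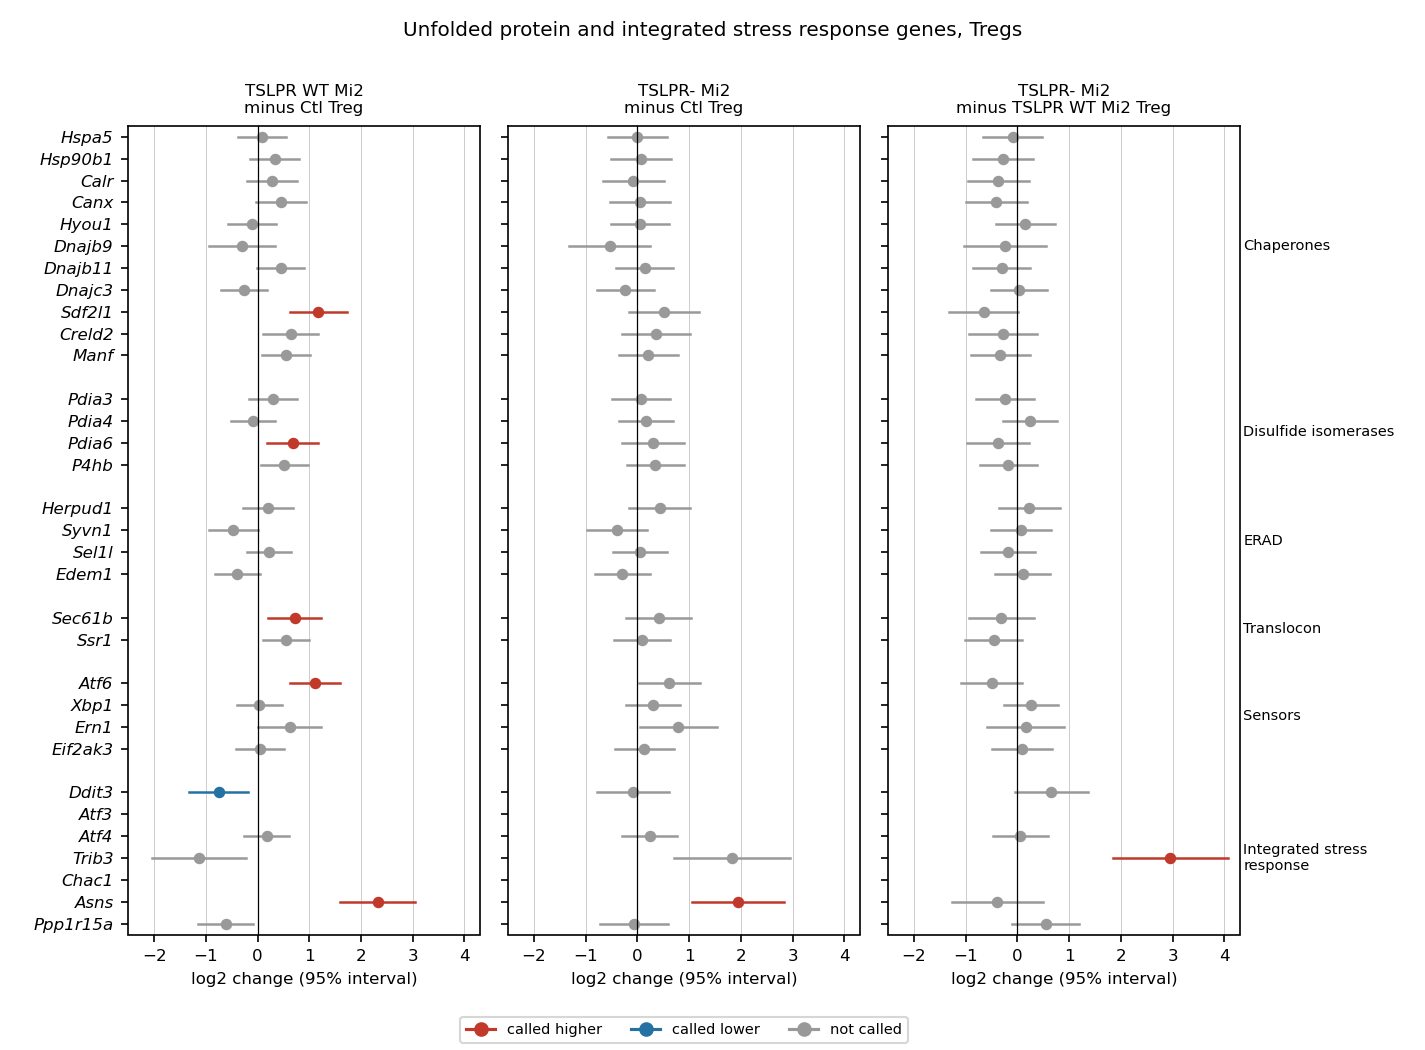
Log2 change (x axis) of each gene, by role, in the 3 Treg comparisons, with 95% intervals from 1 fit of 5 libraries; the comparisons share libraries. Asns lies to the right in both comparisons with Ctl (2.32 and 1.94), and Trib3 lies at 2.96 for TSLPR- minus TSLPR WT Tregs.

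Leaving out single libraries changed some of these calls. Without TSLPR WT replicate 2, the library with the highest Hspa5, Calr and Pdia6, 3 genes were called higher (Asns, Atf6 and Sdf2l1), and Pdia6 changed by 0.38 (adjusted p = 0.459) and Sec61b by 0.63 (adjusted p = 0.194). Sec61b was also lost without TSLPR WT replicate 1 (0.81, adjusted p = 0.0689) and without Ctl replicate 1 (0.59, adjusted p = 0.151), and Pdia6 without Ctl replicate 1 (0.60, adjusted p = 0.107) and without Ctl replicate 2 (0.75, adjusted p = 0.0502). Ddit3 was not called without any one of the 4 libraries, with adjusted p between 0.0725 and 0.213. Without the filter on low values, 0 of all genes were called by limma, while 5043 had an unadjusted p under 0.05, so each of the 6 calls was lost there. With the replicate number as a block, 9 genes were called higher and 2 lower. Over all genes that fit called 2260 higher and 2101 lower of 12189, against 1791 and 1592 of 12206 in the main fit. Markers of other cell types moved with the comparison. All 8 B cell markers were lower, their sum running between 1155 and 1383 normalized reads in TSLPR WT Tregs and between 2897 and 5963 in Ctl Tregs. Of the plasma cell markers, a cell type rich in ER, Jchain had 6.17 and 5.97 in TSLPR WT Tregs, against 212 and 47.3 in Ctl Tregs, and Mzb1 had 6.17 and 16.9 in TSLPR WT Tregs, against 115 and 39.3 in Ctl Tregs. Tnfrsf17 had 0 and 1 in TSLPR WT Tregs, against 0 and 0 in Ctl Tregs. The other plasma cell markers listed, Prdm1, Sdc1 and Irf4, were higher, Prdm1 by 2.19 and Sdc1 by 1.70, and effector Tregs also express Prdm1 and Irf4. Sdc1 had 22.9 and 40.8 in TSLPR WT Tregs, against 11.8 and 6.42 in Ctl Tregs, where it rested on 10 and 8 reads. Its Ctl mean of 9.125 was under the filter, so it was tested only through the Mi2 libraries. The summed plasma cell list ran between 12730 and 16738 in TSLPR WT Tregs and between 5117 and 6730 in Ctl Tregs. Most of it was Irf4 and Prdm1 in both groups. The part of B cells and plasma cells in the changes of these genes was not tested.

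**Figure D5:**
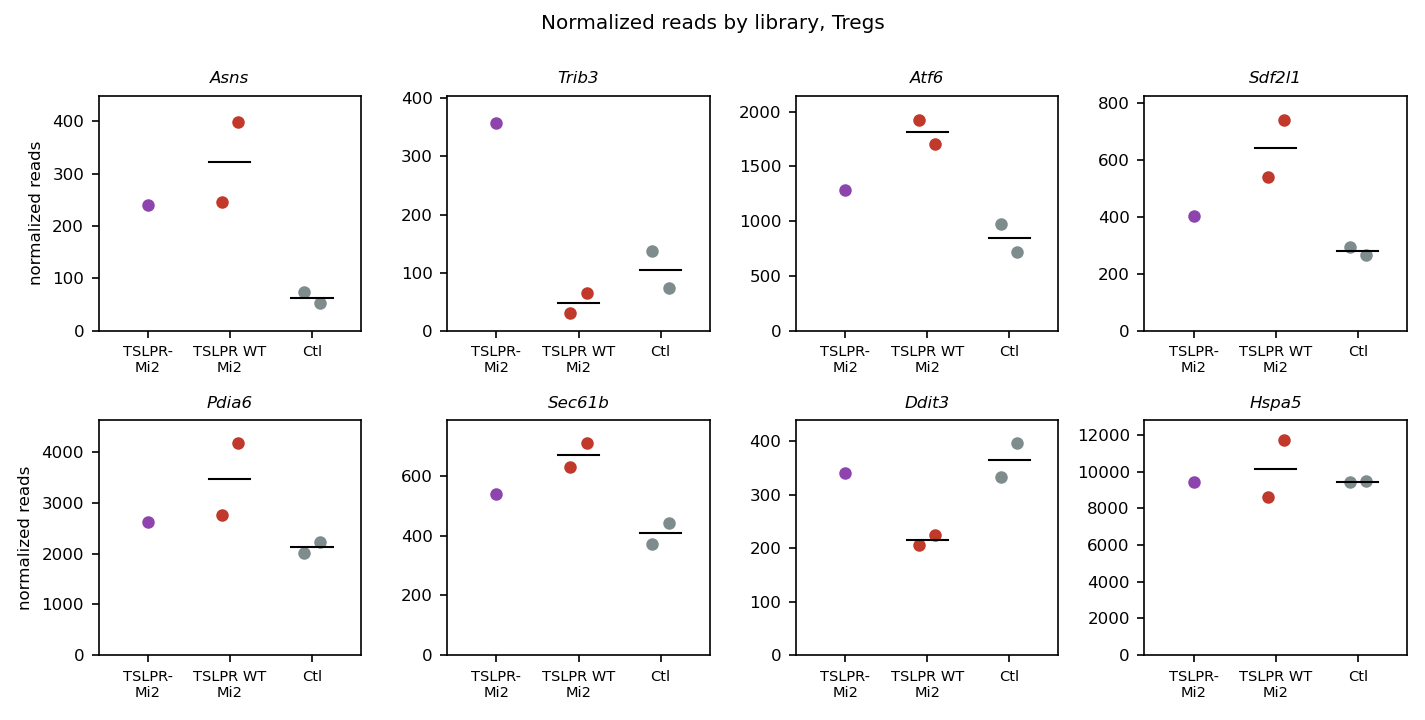
Normalized reads of each Treg library (y axis, from 0) in TSLPR- Tregs of Mi2 mice, TSLPR WT Tregs of Mi2 mice and Ctl Tregs; points are libraries and bars are means of 2. The TSLPR- library lies above the Ctl ones for Asns and above the other 4 for Trib3 (358).

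The TSLPR- Tregs of Mi2 mice, with 1 library, gave 1 call against Ctl Tregs, Asns, and 1 against TSLPR WT Tregs of Mi2 mice, Trib3. Both comparisons rest on the assumption that this library varies like the other groups, and they share libraries with the comparison above. Against Ctl, 1 of 30 genes was called (3.33%), against 3.15% of all genes. That gene was higher, against 2.63% of all genes, and 0 were lower, against 0.516% of all genes. Against TSLPR WT, 1 of 30 was called, against 0.942% of all genes; it was higher, against 0.737% of all genes, and 0 were lower, against 0.205% of all genes. With limma 4 and 1 of the 30 genes had an unadjusted p under 0.05 in the comparisons with Ctl and with TSLPR WT, and edgeR and DESeq2 called 1 gene each in both. The median change of the 30 genes was 0.14 against Ctl and -0.18 against TSLPR WT, beside 0.04 and 0.03 over all genes. The 30 changes ran between -0.54 (Dnajb9) and 1.94 (Asns) against Ctl, and between -0.65 (Sdf2l1) and 2.96 (Trib3) against TSLPR WT.

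Asns had 240 normalized reads in the TSLPR- library, 246 and 398 in TSLPR WT Tregs and 73.4 and 52.1 in Ctl Tregs. It was higher than in Ctl by 1.94 (adjusted p = 0.0188), and the difference from TSLPR WT was -0.38 (95% interval -1.27 to 0.50). The call against Ctl was lost without Ctl replicate 2 (1.69, adjusted p = 0.0529). Trib3 had 358 in the TSLPR- library, 30.9 and 65.7 in TSLPR WT Tregs and 137 and 73.0 in Ctl Tregs. The TSLPR- library was above the other 4, and higher than TSLPR WT by 2.96 ± 0.52 SE (adjusted p = 0.0193). Against Ctl the change was 1.83 (adjusted p = 0.0806), and without Ctl replicate 1 a total of 2 genes were called higher. Atf4, with 2865 in the TSLPR- library (0.24 against Ctl), and Ddit3, with 341 (-0.09 against Ctl), were not called, and Chac1, with 1.69, was not tested.

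For the genes called in TSLPR WT Tregs, the TSLPR- library lay between the TSLPR WT and Ctl groups for most. These genes were picked because those groups differed in the same fit, so this position cannot show a dependence on TSLPR. How often it occurs over all genes was not counted. Atf6 had 1282 normalized reads in the TSLPR- library. Its difference was -0.50 from TSLPR WT (95% interval -1.08 to 0.09) and 0.61 from Ctl (limma, adjusted p = 0.342). Sdf2l1 had 402, with a difference from TSLPR WT of -0.65 (-1.33 to 0.02). Sec61b had 539 (-0.31) and Pdia6 had 2627 (-0.37). Asns, at 240, was just below the lower TSLPR WT library, and Ddit3 lay within the range of the Ctl libraries. None of these differences from TSLPR WT was called, and their intervals include 0. Hspa5 had 9425 in the TSLPR- library, Ern1 had 323, Xbp1 had 2472 and Eif2ak3 had 792. Ppp1r15a had 445, and Atf3 had 1.69. In this library the B cell markers summed to 1187 and Jchain had 1.69.

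The further pathway lists were read in Tregs in the same way, beside 14.7% of all genes called higher in TSLPR WT Tregs. In TSLPR WT Tregs, amino acid and ATF4-linked genes again held the largest share called higher, 8 of 20 tested with a median change of 0.66. Psat1 and Phgdh, enzymes of serine synthesis, led with Slc7a5. Phgdh had 943 and 1358 normalized reads in TSLPR WT Tregs, against 321 and 440 in Ctl Tregs (log2 1.59, adjusted p = 0.000407). Psat1 had 3152 and 4576 in TSLPR WT Tregs, against 1374 and 1321 in Ctl Tregs (1.49, adjusted p = 0.000197). Slc7a5 had 2809 and 4230 in TSLPR WT Tregs, against 1312 and 1449 in Ctl Tregs (1.32), and Shmt2, the mitochondrial serine hydroxymethyltransferase, rose by 0.98. The groups did not overlap for these genes, and TSLPR WT replicate 2 was the highest library for each. Without it, 4 amino acid genes were called. Of 20 tRNA synthetases, 4 were higher (median 0.38): Gars 0.95, Aars 0.78, Vars 0.75 and Yars 0.63. Without TSLPR WT replicate 2, 0 synthetases were called by limma and 2 had an unadjusted p under 0.05.

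The remaining lists had shares called higher in TSLPR WT Tregs near or below the 14.7% of all genes: 14.3% for ER folding, 10.7% for ERAD, 14.8% for translocation, 5% for ER-Golgi, 9.09% for sensors and regulators, 5.56% for heat shock and 11.1% for immediate early genes. Of 21 further ER folding genes, 3 were higher. Txndc5 had 3779 and 3644 normalized reads in TSLPR WT Tregs, against 1732 and 1598 in Ctl Tregs (log2 1.16, adjusted p = 0.000619). Pdia5, another disulfide isomerase, had 26.5 and 30.9 in TSLPR WT Tregs, against 4.73 and 4.01 in Ctl Tregs; it rested on 4 and 5 reads in Ctl Tregs and passed the filter through the Mi2 libraries alone. Txndc5 was followed by the prolyl isomerase Fkbp2, which rose by 0.91. Of 28 ERAD genes, 3 were higher, the derlin Derl3 (1.31), Nploc4 (0.60) and Vcp (0.58). Of 27 translocation genes, 4 were higher: Sec11c, a signal peptidase subunit, had 3311 and 3401 in TSLPR WT Tregs, against 1454 and 1298 in Ctl Tregs (1.29), and Ssr2 (0.79), Rpn1 (0.64) and Ostc (0.57) followed. Of 20 ER-Golgi genes, 1 was higher (Sec24d, 0.95) and 1 lower (Mcfd2, -0.81). Of 22 sensors and regulators, 2 were higher (Eif2b1 0.69, Eif2s1 0.68), and of 18 heat shock genes 1 was (Hsp90aa1, 0.76). Of 9 immediate early genes, 4 were lower, among them Jun (-2.03), Egr1 (-1.17) and Nr4a1 (-0.98), and 1 was higher, Junb (0.84). Of all genes, 13% were called lower. With the TSLPR- library, 0 genes of the 9 lists were called by limma, edgeR or DESeq2 in either comparison, and 23 had an unadjusted p under 0.05 against Ctl and 11 against TSLPR WT.

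The promoter matches can be set beside the calls as a description. Of the 8 genes with an ERSE, 4 were called higher in Mi2 epidermis (Hspa5, Hsp90b1, Calr and Canx), against 7 of the 20 tested genes whose windows held none, 13 of all 31 tested and 15.1% of all genes. The others changed by 0.44 (Creld2), 0.37 (Pdia6), 0.35 (Syvn1) and 0.19 (Dnajc3). In TSLPR WT Tregs, Pdia6 was the ERSE gene that was called, 1 of 8, against 3 of 19 tested genes whose windows held no ERSE. Of the 5 genes with a CARE, Asns and Trib3 were called higher in Mi2 epidermis, Atf3 and Herpud1 were not called, and Chac1 was not tested. Ddit3 and Atf4 held none of the 4 motifs in these windows.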

How the data were processed

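RNA from sorted keratinocytes (4 libraries) and Tregs (5 libraries) was sequenced by the submitters. The deposited signal of both tables is a normalized read count. Every value was a whole multiple, within 0.05 reads, of 1 factor per library, so whole reads were recovered. Per the submitters' processing notes, bcl2fastq 1.8.3, STAR and DESeq2 were used, with builds mm9 and mm10 listed without roles. Per the file headers, HOMER counted Treg reads over exons of RefSeq transcripts on mm9 for the authors, and the command names 7 libraries, of which 5 are in the table. The column named TMDKO was read as the TSLPR- sample, since its title alone had no column; the labels do not spell the name out. A Treg gene is its transcript with the highest mean.

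The test for normalized values was used, since the tables did not hold raw counts: limma 3.58.1 (R 4.3.3) with an intensity trend on log2(value + 1), after leaving out genes with a mean under 10, with Benjamini-Hochberg adjustment over all genes tested, two-sided, called at 0.05. The epidermal fit used 4 libraries and 1 Treg fit used 5. An exact permutation test of 2 libraries against 2 cannot go below p = 0.333 and was not used. edgeR 4.0.16 and DESeq2 1.42.0 on recovered reads, a pseudocount of 4, no filter, no trend, other scalings (without the 50 most abundant genes, or without mitochondrial genes), a replicate block and each library left out were alternatives. P-values set a change against the spread between libraries, which may be technical. For each gene, limma estimates most of that spread from other genes of similar level. Reads carried no molecular identifiers.

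The 32 genes and the lists were chosen with earlier results of these data known. Called genes and sensors are given by library, and of each further list up to 4 called genes with the smallest p. Krt1, Krt10 and some plasma cell markers were named after their values were seen. Listed protein ends were not analysed here. Exon overlaps were read from GENCODE M21 and promoters from RefSeq (GRCm38.p6).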

Additional observations from a re-analysis of the deposited data

Results flagged for a closer look

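For 5 genes, the Mi2 libraries lay on one side of their comparison group in epidermis and on the other side in TSLPR WT Tregs, with no overlap in either. That is 5 of the 30 members tested in both tables (16.7%), against 1431 of the 9520 genes tested in both (15.03%). The share thus lay near that of all genes. A further 14 members (46.67%) lay on the same side in both without overlap, against 32.51% of all genes. The difference between the tissues was not tested. Trib3 changed by 2.62 in Mi2 minus WT epidermis and by -1.13 in TSLPR WT Mi2 minus Ctl Tregs, both on the log2 scale. Dnajc3 changed by 0.19 in epidermis and -0.27 in Tregs, Syvn1 by 0.35 and -0.47, and Edem1 by 0.28 and -0.39. Eif2ak3 changed by -0.52 in epidermis and 0.045 in Tregs. Among these values, limma called Trib3 in epidermis and no other. The changes of Trib3 from Ctl in the TSLPR- library and in the TSLPR WT libraries differed by 2.96 when tested directly (adjusted p = 0.0193), with 1 library of TSLPR- Tregs.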

How the results depend on the processing

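No member's called change turned its sign under any alternative, and Calr in epidermis was called in all 12. With libraries left out, members called higher and lower in epidermis numbered 1 to 14 and 0 to 4. In TSLPR WT minus Ctl Tregs they numbered 3 to 5 and 0 to 1, and in TSLPR- minus Ctl Tregs 0 to 2 were higher. Without the filter, 0 members were lower in epidermis, and 0 were higher or lower in TSLPR WT minus Ctl, 0 higher in TSLPR- minus Ctl and 0 higher in TSLPR- minus TSLPR WT Tregs; over all genes in the Treg fit limma then called 0, with 5043, 1942 and 1741 at an unadjusted p under 0.05. Without the trend, 0 members were lower in epidermis, 3 were higher and 0 lower in TSLPR WT minus Ctl, and 0 were higher in each TSLPR- comparison. With a pseudocount of 4, Ddit3 was not called in TSLPR WT minus Ctl Tregs, leaving 0 lower. Fitted on only the groups compared, 2 members were higher in TSLPR- minus Ctl Tregs. The cause of these changes was not tested. With the replicate block, 2 members were lower in epidermis, and 9 were higher and 2 lower in TSLPR WT minus Ctl Tregs. Calls over all genes also rose with the block, from 4085 to 5170 in epidermis and from 3383 to 4361 in TSLPR WT minus Ctl Tregs. Differences between replicate 1 and replicate 2 were correlated across genes between the 2 groups compared. The correlation was 0.123 in epidermis and 0.0930 in Tregs (TSLPR WT and Ctl), each from 2 pairs of libraries. The labels do not say that a number marks a shared animal or day, so the samples share only a number. Over all genes, calls in TSLPR- minus Ctl Tregs were 384, against 664 on only the groups compared and 1 without the trend, and in TSLPR- minus TSLPR WT Tregs 115, against 365, 3 and, with DESeq2, 236. Rescaled without the 50 most abundant genes, the epidermal median of all genes was -0.16, against -0.03, and 11 members were called higher. With 2 libraries a group or fewer, changes near the threshold depend on 1 library, and genes under 10 normalized reads, such as Chac1, were not tested.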
